A study of Homo sapiens with 12 samples.

Results

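The genes described here carry, make, break down or read retinoic acid: the binding proteins CRABP1 and CRABP2, the retinaldehyde reductase DHRS3, the synthetic enzyme ALDH1A1, the degrading enzymes CYP26A1, CYP26B1 and CYP26C1, and the nuclear receptors RARA, RARB and RARG. They were chosen by gene symbol, and all 10 were found among the 25718 gene symbols in the tables. Of these 10 genes, 2 (CRABP1 and DHRS3) had a mean above 10 counts over the 12 samples and were among the 11451 genes tested. The other 8 reached at most 10 counts in any library and are given as counts.

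Retinoic acid is made from retinol (vitamin A) by way of retinaldehyde, is carried in the cytoplasm by CRABP proteins, and is broken down by the CYP26 enzymes. In the nucleus it binds receptors of the RAR family, which pair with RXR receptors on short repeated DNA motifs called retinoic acid response elements. In the embryonic neural tube it acts as a caudalizing signal, inducing HOX genes in the hindbrain and spinal cord, and several of its own binding proteins, receptors and degrading enzymes are among its target genes.

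The samples were cultures of H9, an established human embryonic stem cell line. H9 cells were transduced with a lentiviral vector, at a multiplicity of infection of 50, from which either miR-10a or miR-10b was switched on by doxycycline, and were differentiated towards ventral midbrain with SHH (200 ng/ml) and the GSK3 inhibitor CT99021. Each of the 4 groups held 3 samples: miR-10a doxycycline, miR-10a control, miR-10b doxycycline and miR-10b control. Doxycycline (2 µg/ml) was present from day 11 until harvest on day 14 in the doxycycline groups, and the controls were cells of the same vector without it. According to the study's methods, the B27 supplement of the medium held no vitamin A. The vectors also carried a GFP reporter, and no vector without a microRNA is among these 12 samples, so an effect of doxycycline itself and an effect of the microRNA cannot be told apart. The methods speak of triplicates without saying whether these were separate differentiations, so that p-values measure the spread between these samples, which may be technical.

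Expression was measured by sequencing of mRNA, with reads assigned to RefSeq transcripts. Levels are given as CPM, in which a count is divided by the size of its library, or as RPKM, which also divides by transcript length in kilobases and allows genes to be compared. Total counts ranged from 10545487 to 14165426, and every control library was deeper than every doxycycline library of its vector. A floor of 3 counts corresponded to 0.212 to 0.284 CPM, and covers counting error only. The counting appeared to leave out reads shared between transcripts of a gene: GAPDH, which has 4 transcripts, reached 50.9 counts on average over all of them, and ACTB, which has 1, reached 107119.8. Of the 10 retinoic acid genes, 6 had several transcripts, and a low count for these cannot be read as low expression. The precursor counts matched the labels: MIR10A was at 723.7 ± 10.8 CPM (SD, n = 3) in the miR-10a doxycycline group and 0.999 ± 0.363 CPM in its control, and MIR10B at 2619 ± 67.5 and 3.55 ± 0.807 CPM in the miR-10b doxycycline and control groups. In uninduced cells each precursor was higher with its own vector. MIR10A was at 0.0515 CPM in the miR-10b controls, against 0.999 CPM in the miR-10a controls. MIR10B was at 0.814 CPM in the miR-10a controls, against 3.55 CPM in the miR-10b controls. Replicate 2 of the miR-10b doxycycline group stood apart from its replicates, with a chi-square per degree of freedom of 3.16 and 4.10 against a range of 1.23 to 1.93 in the other pairs. Markers of ventral midbrain floor plate were present, with 9 of 11 tested, SHH the most abundant of them and LMX1B, a gene with several transcripts in RefSeq, at 0.

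To place these genes against the induced microRNAs, their 3′UTRs were searched for matches to the miR-10a seed. The mature miR-10a-5p (RefSeq, GRCh38.p14, chr17:48579904-48579926, minus strand) is shown with its seed, bases 2 to 8, in capitals. The mature miR-10b-5p is named only.

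miR-10a-5p: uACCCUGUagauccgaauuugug

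In the longest 3′UTR of each gene (GENCODE 44 on GRCh37), none of the 10 genes held the 8mer ACAGGGTA or either 7mer within it, ACAGGGT or CAGGGTA. Among 17724 genes with a 3′UTR, 18.4% held such a 7mer or 8mer. The 3′UTRs of the tested genes were short, with 248 bases in CRABP1 and 430 in DHRS3 against a median of 1264, and neither held even the 6mer CAGGGT. The 6mer alone occurred once in RARB, and in 2 places each in RARG and CRABP2. The RARB site, at chr3:25504341, lay in the 3′UTR of transcript ENST00000692640, while the gene runs on to 25639423. Other 3′UTRs of RARB were not searched. The RARB site and those of CRABP2 are shown as examples of these partial matches, from the genes of the 3 with more than 1 read in all, with the 6mer in capitals and in the direction of the transcript.

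RARB (GRCh37, chr3:25504333-25504354, plus strand): cgcagaggCAGGGTtccagaag

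CRABP2 (GRCh37, chr1:156669659-156669680, minus strand): gcctcttgCAGGGTcttgcttt

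CRABP2 (GRCh37, chr1:156669520-156669541, minus strand): gcccagagCAGGGTctctctaa

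All 10 genes had at least 1 promoter window in RefSeq, giving 18 windows of 300 bases (250 before to 50 after a start site, GRCh38.p14). Half-sites of a retinoic acid response element were searched on both strands as the word AGGTCA and its close variants, which were AGTTCA, then also GGGTCA, and as a last word GGTTCA. A half-site was present in 9 of the 18 windows and in 38.6% of all 35116 windows. A direct repeat of half-sites with 5 bases between them, the spacing called DR5, was much rarer, at 0.0883% of all windows, and occurred at RARB and at CYP26A1. The DR5 lay 53 to 37 bases before a start site of RARB and 90 to 74 bases before one of CYP26A1. Both stretches are shown with the half-sites of the DR5 in capitals, as examples of the response elements through which these genes are known to be read. The RARB stretch also holds a further half-site, GGGTCA, left in lower case. Those of CYP26A1 appear as their reverse complement because they lie on the minus strand. No half-site was found in the CRABP1 window, whereas 2 of the 3 DHRS3 windows held 1 each. These matches describe the letters of the windows, not bound sites.

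RARB (GRCh38.p14, chr3:25428170-25428266, plus strand): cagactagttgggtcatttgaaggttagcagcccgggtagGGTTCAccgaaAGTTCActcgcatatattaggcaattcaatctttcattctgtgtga

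CYP26A1 (GRCh38.p14, chr10:93073763-93073859, plus strand): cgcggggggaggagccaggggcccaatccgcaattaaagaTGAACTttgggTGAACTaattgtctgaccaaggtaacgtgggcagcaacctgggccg

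CRABP1 was the most abundant of the 10 genes, and its level differed more between the vectors than with doxycycline. CRABP1 (NM_004378, GRCh37 chr15:78632695-78640567, plus strand) encodes cellular retinoic acid binding protein 1, a cytoplasmic carrier of retinoic acid. The miR-10a control libraries were at 211.6, 214.5 and 206.5 CPM, and the miR-10a doxycycline libraries at 189.9, 198.3 and 188.8 CPM. The miR-10b control libraries were at 121.9, 113.8 and 114.0 CPM, and the miR-10b doxycycline libraries at 105.4, 107.1 and 99.28 CPM. Every doxycycline library lay below every control library of its vector. All miR-10b libraries lay below all miR-10a libraries, so that the 4 groups did not overlap. The share of all tested genes whose groups did not overlap was not counted, here or for the genes below. The group means were 210.9 ± 4.07, 192.3 ± 5.18, 116.6 ± 4.65 and 103.9 ± 4.11 CPM (SD, n = 3) in that order. These levels rest on 1194 to 3039 reads per library.

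DHRS3 moved the other way along the same groups. DHRS3 (NM_004753, GRCh37 chr1:12627939-12678216, minus strand) encodes a reductase that turns retinaldehyde back into retinol and so lowers the supply for retinoic acid synthesis. Its miR-10a control libraries were at 17.12, 17.08 and 18.99 CPM, and its miR-10a doxycycline libraries at 20.74, 21.44 and 20.86 CPM. The miR-10b control libraries were at 31.30, 30.44 and 29.67 CPM, and the miR-10b doxycycline libraries at 32.56, 32.77 and 32.43 CPM. The 4 groups again did not overlap, and their order was the reverse of that of CRABP1. The group means were 17.73 ± 1.09, 21.01 ± 0.376, 30.47 ± 0.811 and 32.59 ± 0.175 CPM, from 213 to 411 reads per library.

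**Figure D1:**
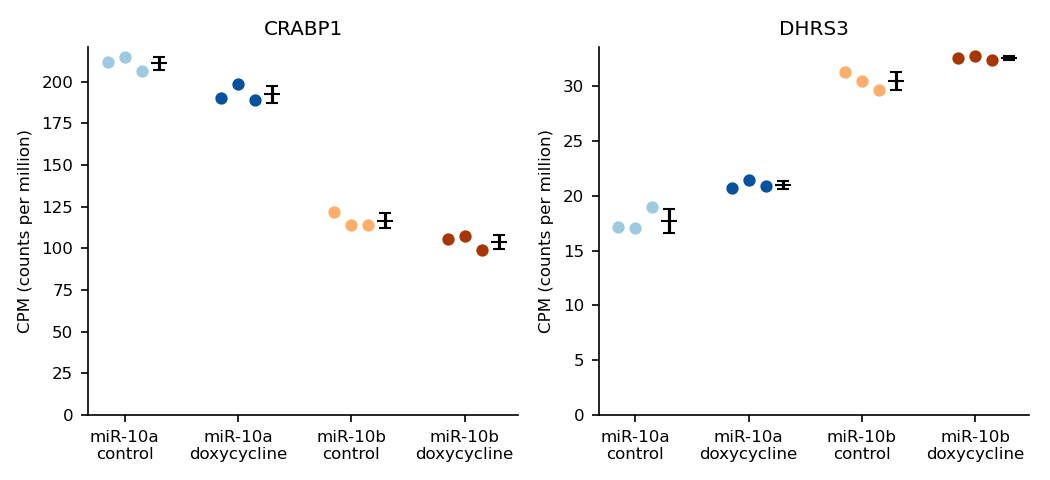
Level of CRABP1 (left) and DHRS3 (right) in CPM in the 4 groups. Points are single libraries (n = 3 per group), and the black bar beside them is the mean with its SD. CRABP1 goes down from left to right, from a mean of 210.9 to 103.9 CPM, while DHRS3 goes up, from 17.73 to 32.59 CPM, and no groups overlap.

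Per length, CRABP1 was at a mean of 202 RPKM and DHRS3 at 14.77 RPKM over the 12 libraries. The ratio of the CRABP1 level to the DHRS3 level, both per length, was 26.6 ± 2.06 in the miR-10a controls and 20.4 ± 0.220 with doxycycline (SD, n = 3). In the miR-10b controls it was 8.54 ± 0.180, and with doxycycline 7.12 ± 0.248. The ratio was lower in each following group, with no overlap between them. This follows from the opposite orders of CRABP1 and DHRS3 and is not a further result.

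In control cells, which had received no doxycycline, the comparison of miR-10b with miR-10a cultures called 14.1% of all tested genes. CRABP1 and DHRS3 were both called and in opposite directions. CRABP1 was lower in the miR-10b controls by a log2 difference of -0.86 (SE 0.0393, 95% confidence interval -0.94 to -0.78, edgeR adjusted p = 7.58e-19), or 0.552-fold. Of the 11451 tested genes, 180 (1.57%) differed by more. DHRS3 was higher in the miR-10b controls, with a log2 difference of 0.78 (SE 0.0706, 95% confidence interval 0.64 to 0.93, edgeR adjusted p = 6.43e-11), or 1.72-fold, and 240 genes (2.10%) differed by more. Each difference exceeded the spread between replicates. Each precursor was higher in the controls of its own vector, as given above, and its part in these differences was not tested. The vectors are separate transductions, so that vector and culture cannot be told apart. In bulk RNA, fewer cells of a type and less RNA per cell cannot be told apart either.

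Markers of cell types moved with the same vectors. The summed level of the 11 floor plate markers was 1118 to 1158 CPM in the miR-10a libraries and 1351 to 1447 CPM in the miR-10b libraries, with LMX1B at 0 in all 12. That of 5 hindbrain markers, led by GBX2, was 21.6 to 25.4 and 30.8 to 35.0 CPM, with EGR2 at 0. Of the 3 tested in control cells, 2 were higher with miR-10b and 1 was lower (HOXA2, -1.08 on the log2 scale). The summed level of 5 markers of pluripotent cells was 140.1 to 155.2 and 101.8 to 112.1 CPM, with NANOG at 0. It was led by DPPA4, the only 1 of the 5 that passed the count minimum. The 6 markers of neural progenitors, led by NES, summed to 9704 to 10150 and 10720 to 11330 CPM, but their members went in both directions. Of the 5 tested in control cells, 3 were higher with miR-10b (VIM 0.19, NES 0.17 and SOX2 0.13 on the log2 scale) and 2 were lower (SOX1 -1.23 and SOX3 -0.76). Of the 9 tested floor plate markers, 5 were higher and 0 lower. Markers of neural crest (5 genes, 0 tested) summed to 0.376 to 1.60 CPM over all libraries, and those of mesoderm and endoderm (6 genes, 1 tested) to 0.721 to 2.59 CPM. Markers of neurons (5 genes, 2 tested) summed to 14.5 to 18.5 CPM, and those of forebrain (3 genes, 2 tested) to 20.7 to 25.0 CPM. The untested markers fell under the count minimum, and a low count of a gene with several transcripts cannot be read as absence. The part of these cell types in the CRABP1 and DHRS3 differences was not tested.

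Doxycycline lowered CRABP1 and raised DHRS3 when both vectors were averaged, which sets 6 doxycycline against 6 control libraries. Both tested retinoic acid genes were called, in a comparison that called 13.9% of all tested genes. CRABP1 fell by 0.15 on the log2 scale (SE 0.0285, edgeR adjusted p = 0.00026), a level 0.902-fold that of the controls, with a 95% confidence interval of -0.21 to -0.09. DHRS3 rose by 0.17 on the log2 scale (SE 0.0504, edgeR adjusted p = 0.0178), or 12.7%, with a 95% confidence interval of 0.07 to 0.28. In both genes, all 6 doxycycline libraries lay beyond all controls of their own vector, but how many of all tested genes separate in this way was not counted. DHRS3 separated with miR-10b too, where its test did not call it (edgeR adjusted p = 0.345). Without replicate 2 of the miR-10b doxycycline group, the library that stood apart, the changes were -0.16 (adjusted p = 2.56e-05) and 0.17 (adjusted p = 0.023). Markers of cell types moved with doxycycline too, in the same average and named after their values were seen. Of the 9 tested floor plate markers, 3 were called lower and 0 higher. The 3 were WNT1 (-0.55), CORIN (-0.53) and MSX1 (-0.21 on the log2 scale). In direction alone 6 of the 9 lay below 0 and 3 above, among them LMX1A (0.33, edgeR adjusted p = 0.0638). Of the 5 tested progenitor markers, 2 were called lower (SOX3 -0.26 and NES -0.09) and 0 higher. The part of these markers in the CRABP1 and DHRS3 changes was not tested. Among all genes measured, larger changes than those of CRABP1 and DHRS3 were common: 25.8% of tested genes changed by more than CRABP1 and 21.0% by more than DHRS3. The CRABP1 call held in every alternative, whereas that of DHRS3 was lost with DESeq2 (adjusted p = 0.084) and without replicate 1 of the miR-10a control group (adjusted p = 0.052).

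With the miR-10a vector alone, neither gene passed the threshold by edgeR, where 1.21% of all tested genes were called. CRABP1 had a log2 difference of -0.13 (SE 0.0379, adjusted p = 0.0773) and DHRS3 of 0.25 (SE 0.0777, adjusted p = 0.127). Before adjustment, 2 of the 2 had a p under 0.05 in the same edgeR fit. The share of all tested genes with an unadjusted p under 0.05 was not counted, here or below. DESeq2 called 1 of them, CRABP1 (adjusted p = 0.049), as did the edgeR fit on the miR-10a samples only (adjusted p = 0.016) and that without replicate 2 of the miR-10b doxycycline group (adjusted p = 0.019).

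With the miR-10b vector alone, CRABP1 fell by 0.17 on the log2 scale (SE 0.0425, edgeR adjusted p = 0.00575), or by 10.8%. DHRS3 had a log2 difference of 0.10 (SE 0.0643, adjusted p = 0.345) with a 95% confidence interval of -0.03 to 0.23. One of both genes was therefore called, beside 15.3% of all tested genes. Without replicate 1 of the miR-10b control group, which had the highest CRABP1 level of its group, CRABP1 had an adjusted p of 0.053 at a log2 difference of -0.13. Without the doxycycline library that stood apart, the difference was -0.19 (adjusted p = 0.00214).

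The effect of doxycycline on these genes was not shown to differ between the vectors. In the test of the difference itself, which called 1.96% of all tested genes, neither gene passed the threshold in edgeR, 0 of the 2 had an unadjusted p under 0.05, and DESeq2 called 0 as well. The difference, miR-10b minus miR-10a, was -0.03 on the log2 scale for CRABP1 (95% confidence interval -0.15 to 0.08, adjusted p = 0.861) and -0.15 for DHRS3 (95% confidence interval -0.36 to 0.05, adjusted p = 0.562). These intervals leave room for a DHRS3 effect that is smaller with miR-10b by as much as its miR-10a effect.

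**Figure D2:**
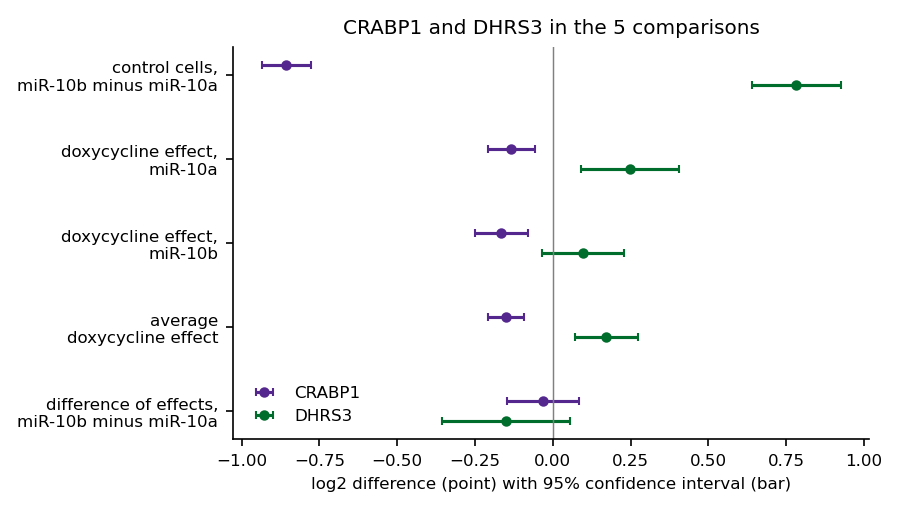
Log2 differences of CRABP1 (purple) and DHRS3 (green) in the 5 comparisons, from the edgeR fit. Points are estimates and bars 95% confidence intervals. The control difference between vectors (-0.86 and 0.78) exceeds the average doxycycline effects (-0.15 and 0.17), and both bars of the difference of effects include 0. The comparisons share samples.

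ALDH1A1 and CRABP2 were near the floor in all 4 groups. ALDH1A1 encodes a retinaldehyde dehydrogenase, a class of enzyme that makes retinoic acid, and has 1 transcript in the tables. Its miR-10a control libraries held 4, 10 and 10 reads, its miR-10a doxycycline libraries 3, 7 and 4, its miR-10b control libraries 6, 2 and 10, and its miR-10b doxycycline libraries 3, 7 and 6. All groups overlapped, and at 0.204 RPKM on average ALDH1A1 was far below CRABP1. CRABP2 delivers retinoic acid to its nuclear receptors, and its reads were counted on NM_001199723, with 3 more reads in all on its other transcript. Its libraries held 9, 6 and 3 reads in the miR-10a controls, 3, 6 and 3 with doxycycline, 4, 3 and 3 in the miR-10b controls and 1, 4 and 4 with doxycycline, and again overlapped in every pair of groups.

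The CYP26 enzymes, cytochromes P450 that oxidize retinoic acid, were counted at 0 to 5 reads per library. CYP26A1 had reads on its transcript NM_057157 in all 6 miR-10a libraries (3, 1 and 2 in the controls and 1, 5 and 3 with doxycycline). In the miR-10b libraries it had 1 read in 1 of 6, a doxycycline library. On this transcript the miR-10a and miR-10b libraries did not overlap within controls, and within the doxycycline groups the only miR-10b read equalled the lowest miR-10a count but lay below it in CPM. Summed over both transcripts the counts were 25 in the miR-10a and 5 in the miR-10b libraries, with a range of 2 to 6 and 0 to 2 per library. On the sum, 3 of the 6 miR-10b libraries had reads, and the controls (6, 2 and 5 with miR-10a, 0, 2 and 0 with miR-10b) touched at 2. CYP26A1 is a sensitive target of retinoic acid in many cells. CYP26B1 held 0 to 2 reads, 6 in all, and CYP26C1, with 1 transcript, 0 to 2 reads, 7 in all. The miR-10b doxycycline libraries held 1, 2 and 1 of the CYP26C1 reads and their controls 1, 0 and 0.

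The receptors RARA, RARB and RARG had 4, 10 and 5 transcripts in the tables, the class of genes that this counting covers poorly. RARA, which is expressed in most cells, held 2 to 7 reads in every library, with 49 in all. RARB is itself a target of retinoic acid through the DR5 shown above. Its reads were all on NM_001290216, with its 9 other transcripts at 0. Whether the window with the DR5 belongs to that transcript was not checked. RARB held 3, 2 and 4 reads in the miR-10a controls, 3, 2 and 0 with doxycycline, 1, 4 and 2 in the miR-10b controls and 2, 1 and 1 with doxycycline. RARG held 1 read in 1 of 12 libraries. No group stood apart from the others for any of the receptors.

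In a fit of all 20966 genes with no filter on low counts, the 8 low genes gave 40 tests over the 5 comparisons. By edgeR 0 of these had an adjusted p under 0.05 and 1 an unadjusted p under 0.05. The lowest adjusted p was 0.123, for CYP26A1 in the control cells of both vectors. No change was detected in these 8 genes, and the size of change that such counts could show was not measured.

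**Figure D3:**
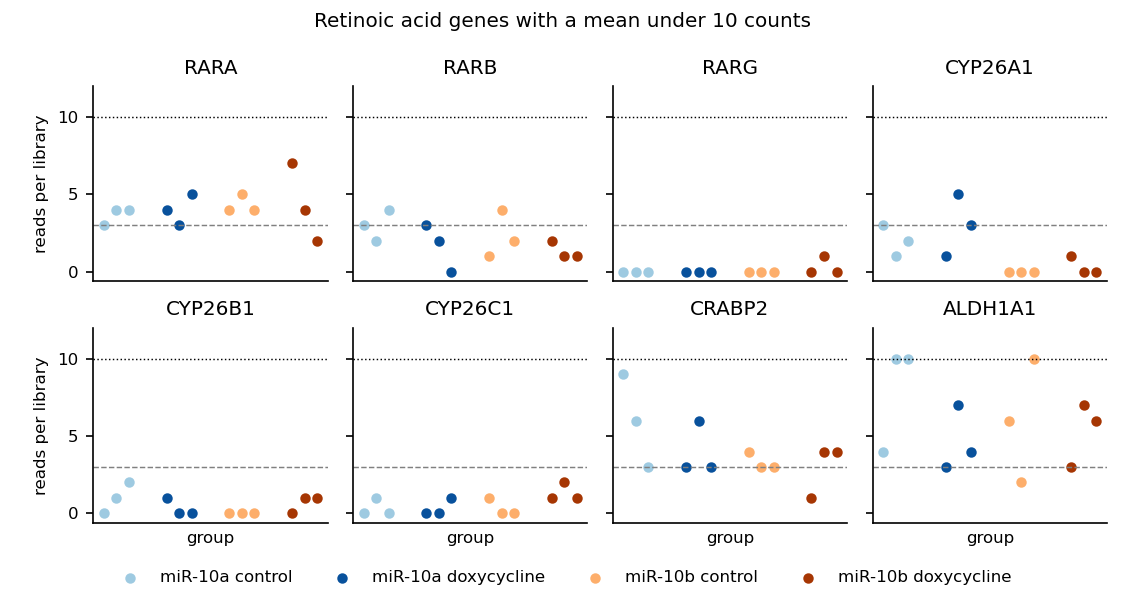
Reads per library of the 8 genes with a mean under 10 counts, by group (colours, 3 libraries each). The dashed line marks the floor of 3 counts and the dotted line the minimum of 10 for the mean. On the transcript shown, CYP26A1 is above 0 in all 6 miR-10a libraries and in 1 of 6 miR-10b libraries (3 of 6 when summed over both transcripts). The groups of the receptors overlap.

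Other genes of retinoid metabolism and signalling, a list of 36 coregulators, RXR partners, retinol enzymes and carriers, included 16 that passed the count minimum. With doxycycline, 1 of these was called in the average of both vectors, 2 with miR-10b and 0 with miR-10a, beside 13.9%, 15.3% and 1.21% of all tested genes. In the average of both vectors 1 fell (TTR) and 0 rose by edgeR, and DESeq2 also called 1. Of the 16, 4 had an unadjusted p under 0.05, a number given without the share over all tested genes. The median log2 difference of the 16 was 0.02 against 0.01 over all tested genes. With miR-10a alone 0 were called by edgeR or DESeq2 and 2 had an unadjusted p under 0.05, and with miR-10b alone 1 rose (EP300, a histone acetyltransferase recruited by receptors, log2 difference 0.10, named after its values were seen) and 1 fell (TTR). The EP300 call depended on the scaling: with TMM and with DESeq2 0 rose and 2 fell (TTR and NRIP1), and with only the samples compared 0 rose and 1 fell (TTR). The comparison of doxycycline effects between vectors called 0 of the 16, in edgeR, DESeq2 and every other alternative, and 1 had an unadjusted p under 0.05. TTR encodes transthyretin, the plasma partner of retinol-binding protein. It was at 4.42, 2.89 and 4.01 CPM in the miR-10a controls and 2.81, 3.48 and 3.51 CPM with doxycycline, which overlapped. In the miR-10b controls it was at 9.21, 10.0 and 9.09 CPM and with doxycycline at 6.06, 7.04 and 6.24 CPM, which did not. Its average change was -0.37 on the log2 scale (SE 0.112, edgeR adjusted p = 0.0214). The call was lost, leaving 0 called genes in the average, when replicate 1 (adjusted p = 0.099) or 3 (adjusted p = 0.064) of the miR-10a control group or replicate 1 of the miR-10a doxycycline group (adjusted p = 0.080) was left out. In the average, 2 of the 16 were called without replicate 2 of the miR-10a control group, replicate 1 of the miR-10b doxycycline group or replicate 1 of the miR-10b control group, and 3 without replicate 3 of the miR-10b doxycycline group, the added genes being EP300, DGAT1 or both. With miR-10a alone, 1 gene (DGAT1) was called without replicate 2 or 3 of the miR-10b doxycycline group. With miR-10b alone, TTR was the one gene called without any 1 of the 3 miR-10b control libraries, replicate 2 of the miR-10b doxycycline group, or replicate 1 of either miR-10a group.

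In control cells, 3 genes of that list were higher in the miR-10b cultures and 1 was lower, which is 4 of 16 beside 14.1% of all tested genes. They are named after their values were seen. TTR was higher by 1.33 on the log2 scale (edgeR adjusted p = 2.95e-09), or 2.50-fold by its mean CPM. RDH10, the dehydrogenase that turns retinol into retinaldehyde and works in the opposite direction to DHRS3, was higher by 0.23 (adjusted p = 0.0295), and DGAT1, an acyltransferase that can store retinol as ester, by 0.20 (adjusted p = 0.015). NRIP1, a corepressor of ligand-bound receptors, was lower by a log2 difference of -0.14 (adjusted p = 0.00728). These 4 calls went down to 1 without replicate 1 of the miR-10b control group and to 2 without replicate 3 of the miR-10a control group. They were also 2 (TTR and NRIP1) with counts thinned to the lowest total. The other synthetic dehydrogenases, ALDH1A2 and ALDH1A3, named here for their role, each have several transcripts and were listed at 0 and at 0 to 1 reads. Of the 20 untested genes, 15 have several transcripts, among them RXRA, RXRB and RXRG.

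Genes known to respond to retinoic acid formed a list of 27 of which 12 were tested. With doxycycline, 1 of the 12 was called in the average of both vectors and 2 with miR-10b, beside 13.9% and 15.3% of all tested genes. In the average of both vectors 1 rose, TSHZ1, a zinc finger transcription factor, and 0 fell by edgeR, while DESeq2 called 0. Of the 12, 3 had an unadjusted p under 0.05, again without the share over all tested genes. The median log2 difference of the 12 was 0.02 against 0.01 over all tested genes. TSHZ1 was at 31.58, 32.90 and 32.53 CPM in the miR-10a controls and 34.41, 32.95 and 35.84 CPM with doxycycline. It was at 32.17, 32.00 and 31.70 CPM in the miR-10b controls and 38.79, 37.84 and 35.84 CPM with doxycycline. No doxycycline library overlapped with controls of its vector, but with miR-10a the nearest 2 libraries were at 32.95 and 32.90 CPM. The TSHZ1 change with miR-10a alone was 0.09 on the log2 scale (edgeR adjusted p = 0.664). Its average change was 0.16 on the log2 scale (SE 0.044, edgeR adjusted p = 0.0121), a call that was lost with DESeq2 (adjusted p = 0.062). In this average 3 of the 12 were called without replicate 2 of the miR-10b doxycycline group (with NR2F1 and NR2F2) and 2 without replicate 1 of the miR-10b control group (with NR2F1). With miR-10a alone 0 of the 12 were called by edgeR, DESeq2 or any other alternative and 1 had an unadjusted p under 0.05, and with miR-10b alone TSHZ1 rose (0.23) and TGM2 fell (-1.64 on the log2 scale). TGM2 passed the count minimum only through the miR-10b controls. HOX genes made up 12 of the 27, of which 2 were tested and the other 10 held at most 3 reads in any library.

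Between control cells of both vectors, 8 of the 12 tested genes of that list were called, 5 higher in the miR-10b cultures and 3 lower, beside 14.1% of all tested genes. Genes of these are named after their values were seen. Higher were, among others, TGM2 (log2 difference 1.65), FOXA1 (0.53), GBX2 (0.52) and NR2F1 (0.31). TGM2 was tested only because these miR-10b controls carried it past the count minimum. Lower were HOXA2 (-1.08), MEIS1 (-0.57) and NR2F2 (-0.21). The median of the 12 was 0.27 against -0.01 over all tested genes, but the called genes went in both directions. HOXA2, a HOX gene of the hindbrain, was at 3.13, 2.40 and 2.56 CPM in the miR-10a controls and 1.59, 1.26 and 0.977 CPM in the miR-10b controls, without overlap. FOXA1 is also among the floor plate markers given above, and GBX2 and HOXA2 are among the hindbrain markers.

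**Figure D4:**
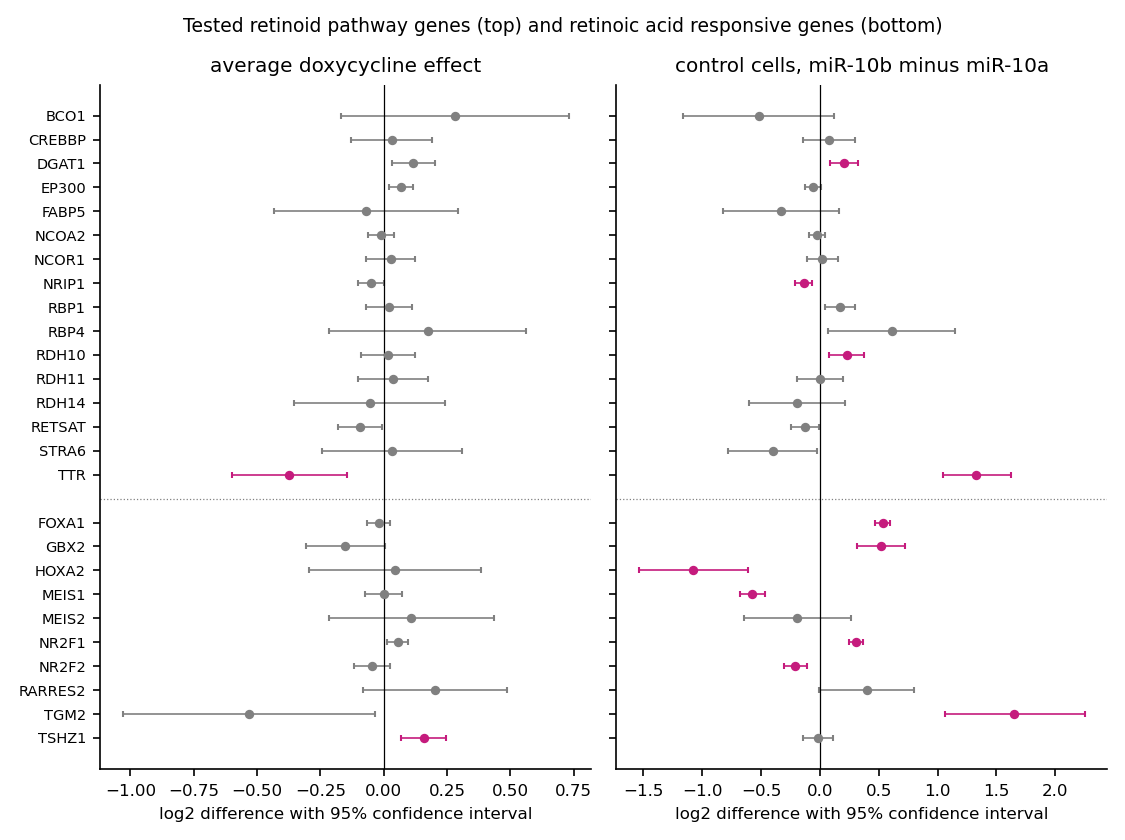
Log2 differences of the 16 tested retinoid pathway genes (above the dotted line) and 10 of the 12 tested retinoic acid responsive genes (below it), in the average doxycycline effect (left) and between control cells of both vectors (right). Points are edgeR estimates, bars 95% confidence intervals, and pink marks an adjusted p under 0.05. In the left panel 2 genes are pink (TTR and TSHZ1), in the right panel 11, and the horizontal scales differ. TGM2, pink in the right panel, passed the count minimum only through the miR-10b controls.

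Across the 12 libraries, the genes whose level followed that of CRABP1 most closely, among 6975 genes with a mean above 100 counts, were SP5 (Pearson's r 0.996), NKX2-2 (0.994) and WNT4 (0.993), on log2(CPM + 0.5). Like CRABP1 they were higher in the miR-10a libraries, SP5 at a mean of 51.7 CPM against 18.1 CPM with miR-10b. Within the 6 miR-10a libraries r was 0.87, 0.863 and 0.735, and within the 6 miR-10b libraries 0.94, 0.92 and 0.788. Closest to DHRS3 were NR2F1 (0.994), DMRTA1 (0.993) and PCOLCE (0.992), with 0.985, 0.96 and 0.965 within miR-10a and 0.824, 0.883 and 0.738 within miR-10b. NR2F1 encodes a nuclear receptor and is on the list of retinoic acid responsive genes. The next in level, ALDH1A1, with at most 10 reads a library, had no gene above 0.715 (ZNF429, followed by CEL at 0.71 and LOC283922 at 0.704). These values describe libraries that share vector and treatment, which raises any such correlation.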

How the data were processed

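The authors mapped 50-bp single-end reads to hg19 and deposited raw counts per RefSeq transcript with the transcript length in bases. The submitters' processing notes name STAR, Subread and featureCounts, without versions. The study's methods name the RNeasy and NuGEN Ovation kits, the labels the miRNeasy and Illumina kits. Repeated lines of a transcript (3698 of 51799) were dropped, and each gene was represented by its transcript of highest mean count. Counts were tested with edgeR 4.0.16 (glmQLFit and glmQLFTest, R 4.3.3) on 11451 genes with a mean above 10 counts, with the total count as library size, as the study scaled to total reads, 4 group means in one fit and Benjamini-Hochberg adjustment over all genes tested (threshold 0.05). The code was tested on simulated data. Alternatives were DESeq2 1.42.0, TMM, other count filters, fits of each vector alone, a replicate block, and leaving out each library. The genes, lists and tests were chosen with earlier results of these data known. All 10 genes are named, from both lists those called in the average effect (at most 6 each), and for the 3 most abundant genes the 3 most correlated. Others are named as such, and some genes of the lists are not reported here. Tables and figures used Python 3.11.15.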

Additional observations from a re-analysis of the deposited data

Results flagged for a closer look

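TGM2, transglutaminase 2, a gene known to be induced by retinoic acid in many cells, was the only tested gene of the responsive list whose doxycycline effect differed between the vectors, with a log2 difference of -2.22 (SE 0.481, edgeR adjusted p = 0.0068, miR-10b minus miR-10a effect). It was named after its values were seen. Its libraries held 29, 22 and 26 reads in the miR-10b controls and 8, 7 and 7 with doxycycline, against 5, 10 and 9 in the miR-10a controls and 12, 8 and 11 with doxycycline. The miR-10b controls stood above all other libraries, and the other 3 groups overlapped. The mean of TGM2 over the 12 samples was 12.8 counts, against the minimum of 10. It was 25.7 in the miR-10b controls, 8 in the miR-10a controls, and 10.3 and 7.33 in the miR-10a and miR-10b doxycycline groups. TGM2 thus passed the minimum only through the miR-10b controls. The same libraries enter its control comparison, its miR-10b effect and its difference between the vectors. The miR-10b effect was -1.64 (adjusted p = 0.000144) and the miR-10a effect 0.58 (adjusted p = 0.616). TGM2 has 2 transcripts in the tables, so that its counts cover part of its reads. DESeq2 gave no adjusted p for TGM2, and in the other alternatives that tested it the difference kept its direction and its call. These alternatives draw on the same miR-10b control libraries, so they are not separate support. In groups of 3 libraries, single outlying libraries were not tested for.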

How the results depend on the processing

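Of the 2 tested retinoic acid genes, the number called changed as follows. With miR-10a it was 0, and 1 with DESeq2, with only the samples compared, and without replicate 2 of the miR-10b doxycycline group (range when leaving out 1 library 0 to 1). With miR-10b it was 1, and 0 without replicate 1 of the miR-10b control group (range 0 to 1). In the average effect it was 2, and 1 with DESeq2 and without replicate 1 of the miR-10a control group (range 1 to 2). Between controls it was 2, and for the difference between vectors 0, in every alternative. The replicate numbers did not pair the samples: deviations of same-numbered libraries correlated at -0.0319 to 0.0082. In a fit with a replicate block, the average effect had an adjusted p of 0.00013 for CRABP1 and 0.021 for DHRS3, and no call of either gene changed, while 2 instead of 1 of the other pathway genes were called. The split of all called genes moved with the scaling: 878 higher and 712 lower in the average effect became 665 and 852 with TMM and 464 and 743 with DESeq2, and with DESeq2 54 and 85 became 36 and 93 with miR-10a, 937 and 819 became 498 and 808 with miR-10b, and 66 and 158 became 22 and 165 for the difference between vectors. TMM left all 40 group means of the 10 genes within 1 SD. The number of all genes called with miR-10a was 139, and 272 with only the samples compared, or 75 to 268 without 1 library. For the difference between vectors it was 224, and 343 with no filter on low counts, or 140 to 339 without 1 library. For the 8 genes near the floor, the size of change that could have been seen was not measured.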
